A study of Mus musculus with 6 samples.

Results

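The genes described here make, break down, take up and sense retinoic acid in the mesoderm of the gastrulating mouse embryo. They were taken by symbol from the deposited count table, and all 10 were found among its 24975 genes. They are Aldh1a2, Rdh10 and Stra6 on the supply side, and Dhrs3, which reverses the step of Rdh10. Cyp26a1, Cyp26b1 and Cyp26c1 are on the breakdown side, and Rara, Rarb and Rarg are the receptor genes. RNA was sequenced from 1000 sorted mesoderm cells per library at embryonic day 7.5, with 3 Gli3R and 3 control libraries. Gli3R embryos had the genotype Mesp1-Cre/+;R26-Gli3R-IRES-Venus/+, in which Gli3R, the repressor form of Gli3 and a dominant negative of Hedgehog transcription, is switched on wherever Cre has acted, and their cells were sorted by Venus. Control embryos had the genotype Mesp1-Cre/+;R26-tdTomato/+ and their cells were sorted by tdTomato. Both groups thus carried 1 copy of Mesp1-Cre, a recombinase under the control of the early mesoderm gene Mesp1, and in both only cells with a history of Mesp1 expression, pooled over littermates, were read. Genotype and sorting reporter changed together in every litter, and their effects cannot be told apart. The comparison asked which transcripts of this mesoderm depend on Hedgehog signalling.

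Retinoic acid is made from retinol, which the blood carries bound to Rbp4 and which cells can take up through the membrane receptor Stra6. Rdh10 oxidises retinol to retinaldehyde, Dhrs3 turns retinaldehyde back into retinol, and Aldh1a2 carries out the last, irreversible step to retinoic acid and is the main source of it in the early embryo. The Cyp26 enzymes hydroxylate retinoic acid for disposal and keep tissues such as the tail end of the embryo free of it. Retinoic acid acts through the nuclear receptors Rara, Rarb and Rarg, which bind DNA with a retinoid X receptor partner and hold target genes down when no ligand is present.

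Library totals ran from 6592417 to 12635151 counts in the Gli3R group and from 5481190 to 10435790 in the control group. Levels are given in CPM, counts divided by a library size that was normalised by TMM, the trimmed mean of M values. Control replicate 1, the shallowest library, stood apart on the first principal component (35.3% of the variance) at -37.3, with the other 5 libraries between -1.44 and 17.9. Mesoderm markers were plentiful in every library, with a summed level of 581 to 736 CPM over 12 genes in Gli3R and 514 to 565 CPM in control libraries. The sums did not overlap, and the 12 genes differed both ways, with 4 positive and 8 negative log2 fold changes and 0 past an adjusted p of 0.05 (edgeR; with litter as a block, Msx1 and Bmp4 rose and T fell). Msx1 (0.82), Bmp4 (0.68) and Hand1 (0.43) stood on the higher side and T (-1.93), Tbx6 (-1.38) and Foxf1 (-0.60) on the lower side. Gli3 itself, part of which the transgene carries, had 43.6, 39.0 and 50.9 CPM in Gli3R replicates 1, 2 and 3, against 25.8, 29.5 and 34.4 CPM in control replicates 1, 2 and 3. Its groups did not overlap, but its log2 fold change of 0.57 ± 0.15 (SE) missed the threshold (edgeR's quasi-likelihood test, QL below; adjusted p = 0.312 by Benjamini and Hochberg over the whole table). Its reads do not separate the transgene from the endogenous gene. Of 11913 genes tested, 0.134% passed at an adjusted p under 0.05 (0.0252% higher and 0.109% lower with Gli3R).

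The synthesis gene Aldh1a2 was lower in every Gli3R library, while the breakdown genes Cyp26a1 and Cyp26c1 were higher in every one, and the retinol receptor gene Stra6 was lower. The 3 retinoic acid receptor genes, Rdh10 and Dhrs3 overlapped between the groups. Of the 10 members, 9 were expressed enough to be tested and 0 passed (edgeR QL, adjusted over the whole table). The DESeq2 Wald test also called 0 of the 9. At an unadjusted p under 0.05, edgeR gave 4 of 9 members (Aldh1a2 and Stra6 lower, Cyp26a1 and Cyp26c1 higher), as it did 6.85% of all genes tested (3.56% higher and 3.29% lower). The same 4 were the members whose groups did not overlap, which was seen in 12% of all genes tested (5.62% higher and 6.33% lower). Cyp26c1 entered the test only through the Gli3R libraries, each of which had 10 or more reads, against 0 of 3 control libraries. The median log2 fold change of the 9 tested members was -0.01, and that of all genes tested was -0.01.

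**Figure D1:**
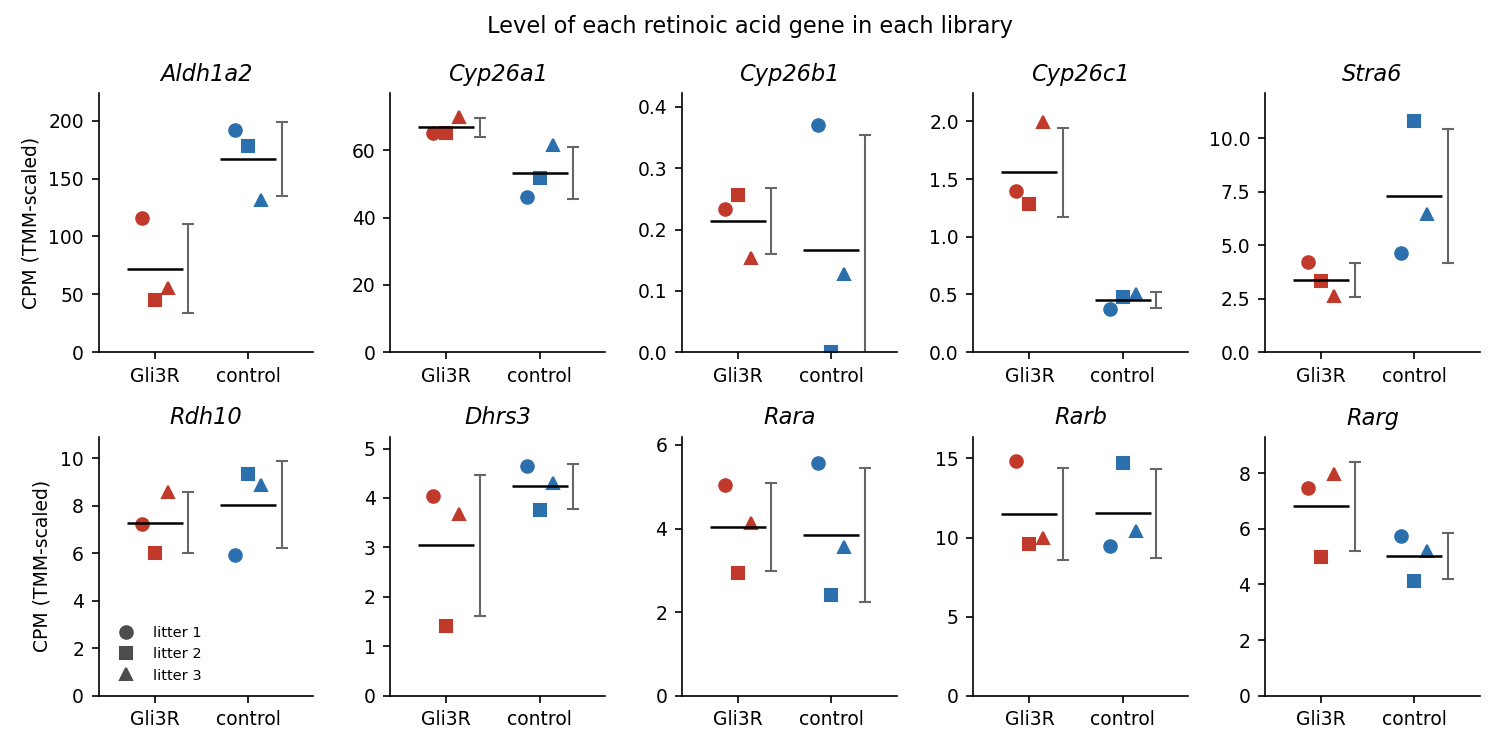
TMM-scaled CPM (vertical axis, from 0, a separate scale per gene) of each retinoic acid gene in the Gli3R libraries (red, left) and the control libraries (blue, right). Symbols mark the litter, black lines the mean and grey bars the SD over 3 libraries. Aldh1a2 lay between 45.5 and 116 CPM in Gli3R libraries and between 131 and 192 CPM in control libraries.

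Per length, Aldh1a2 and Cyp26a1 were the most abundant members in both groups. Cyp26a1 stood at 37.3 ± 1.54 CPM per kb of exon in the Gli3R group and 29.7 ± 4.36 in the control group (SD, n = 3 each), and Aldh1a2 at 31.9 ± 16.8 in the Gli3R group and 73.8 ± 14.02 in the control group. Aldh1a2 thus ranked second of the members with Gli3R and first in control, though with Gli3R these top 2 did not differ beyond their spread. Among all tested genes with a known exon length, the level of Aldh1a2 per kb stood at the percentile 80.02 in the Gli3R group and 89.6 in the control group. Rarb followed at 3.38 ± 0.86 CPM per kb in the Gli3R group and 3.40 ± 0.83 in the control group, far below both. The next places were close together, with Rdh10, Rarg, Dhrs3, Rara, Stra6 and Cyp26c1 between 0.892 and 2.03 CPM per kb in the Gli3R group. In the control group Rdh10, Stra6, Dhrs3, Rarg and Rara lay between 0.897 and 2.24 CPM per kb. From Rdh10 to Rara, neighbours in the control order did not differ beyond their spread, and Cyp26c1 stood lower there at 0.259 ± 0.0414 CPM per kb. Cyp26b1 was last in both groups.

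Aldh1a2, which encodes the retinaldehyde dehydrogenase of the early mesoderm, had 116, 45.5 and 55.4 CPM in Gli3R replicates 1, 2 and 3, against 192, 178 and 131 CPM in control replicates 1, 2 and 3. The highest Gli3R library lay below the lowest control library. Its mean was 72.3 ± 38.1 CPM with Gli3R and 167 ± 31.7 CPM in control (SD, n = 3 each), a log2 fold change of -1.19 ± 0.30 (SE), or 2.28-fold lower with Gli3R. It did not pass over the whole table (edgeR QL, adjusted p = 0.292, unadjusted p = 0.00299). Within litters 1, 2 and 3 the Gli3R library held 0.604, 0.256 and 0.422 times the level of its control, so litter 1 showed the smallest difference. The coefficient of variation among Gli3R libraries was 52.8%, against 19.0% among controls, and Gli3R replicate 1 was the high one. Without Gli3R replicate 1, Aldh1a2 fell (log2 fold change -1.73, edgeR QL, adjusted p = 0.0158). With any other single library left out it did not pass (edgeR QL, adjusted p from 0.222 to 0.782). It also passed when low-count genes were kept in the fit (-1.18, edgeR QL, adjusted p = 0.00317). That fit called 108 of 18719 genes, against 16 of 11913 in the main fit. With litter as a block Aldh1a2 stood at -1.30 ± 0.20 (edgeR QL, adjusted p = 0.0632). In pools of cells, fewer cells that make a transcript and less of it per cell cannot be told apart.

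Aldh1a2 is known as a gene of trunk and paraxial mesoderm, so markers of that tissue are given beside it. The summed level of 12 paraxial markers was 81.3, 52.9 and 56.3 CPM in Gli3R replicates 1, 2 and 3, against 169, 127 and 113 CPM in control replicates 1, 2 and 3. Here too the groups did not overlap, and litter 1 had the highest value in each group. None of the 12 was at 0 in all 6 libraries, and all 10 tested had a negative log2 fold change (median -1.43). Over all genes tested, 6178 of 11913 had a negative log2 fold change. Of these 10 markers, the Notch ligand gene Dll3 passed (edgeR QL), as did 0.109% of all genes tested on the lower side. Tcf15, a transcription factor gene of the forming somites, had 25.5, 25.5 and 29.8 CPM in Gli3R and 46.2, 35.2 and 32.6 CPM in control libraries. Meox1, a homeobox gene of the somites, had 11.3, 4.87 and 4.14 CPM in Gli3R and 16.9, 12.4 and 7.99 CPM in control libraries, with groups that overlapped. Neither passed over all genes tested (edgeR adjusted p = 0.459 and 0.763). T, the Brachyury gene of the primitive streak, had 8.08, 5.13 and 3.53 CPM in Gli3R against 43.6, 16.4 and 7.99 CPM in control libraries, and it fell with litter as a block and did not pass without it (edgeR QL, adjusted p = 0.0373 and 0.402). The part of these tissue markers in the level of Aldh1a2 was not tested.

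The genes whose log2 CPM followed Aldh1a2 most closely over the 6 libraries, at a mean of at least 5 CPM, were Med30, Tfb2m, Hoxa2, Bscl2, Prtg and Mknk1, with Pearson correlations from 0.987 to 0.997. These values only describe 6 libraries that share the group difference, and 42 of 9335 genes compared reached 0.95 or more. The sizes differed widely. Med30, a Mediator subunit gene, had 63.1 to 65.4 CPM in Gli3R and 65.8 to 67.2 CPM in control libraries. Hoxa2, a homeobox gene of the hindbrain and trunk, had 5.13, 2.44 and 3.38 CPM in Gli3R replicates 1, 2 and 3, against 8.16, 8.18 and 6.21 CPM in control replicates 1, 2 and 3. Of the 6, Hoxa2 was thus nearest to Aldh1a2 in size too, at 0.628, 0.298 and 0.543 times the control level in litters 1, 2 and 3.

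Stra6, the membrane receptor gene for retinol uptake, had 4.19, 3.33 and 2.61 CPM in Gli3R replicates 1, 2 and 3, against 4.64, 10.8 and 6.47 CPM in control replicates 1, 2 and 3. The groups came close in litter 1, where the Gli3R library held 0.904 times the control level, while litters 2 and 3 had 0.309 and 0.403 times. Raw reads were 97 in the Gli3R group and 188 in the control group, and the log2 fold change of -1.11 ± 0.33 (SE), or 2.16-fold lower, did not pass (edgeR QL, adjusted p = 0.437). Control replicate 2 was the high library for Stra6, and without it the log2 fold change was -0.70.

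Rdh10, which catalyses the first oxidation of retinol, had 7.22, 6.02 and 8.59 CPM in Gli3R and 5.94, 9.33 and 8.88 CPM in control libraries. Its groups overlapped and its litters disagreed in direction, with a log2 fold change of -0.17 ± 0.23 (SE). Dhrs3, the reductase gene that opposes Rdh10, had 4.04, 1.41 and 3.68 CPM in Gli3R and 4.64, 3.75 and 4.31 CPM in control libraries. Dhrs3 was lower in each litter, mostly through Gli3R replicate 2 with 11 reads, but its groups overlapped (log2 fold change -0.44 ± 0.36). Neither gene passed (edgeR QL, adjusted p = 0.996 and 0.960). Same-direction differences in all 3 litters were seen in 6 of the 9 tested members (Aldh1a2, Stra6 and Dhrs3 lower; Cyp26a1, Cyp26c1 and Rarg higher) and in 30.3% of all genes tested.

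**Figure D2:**
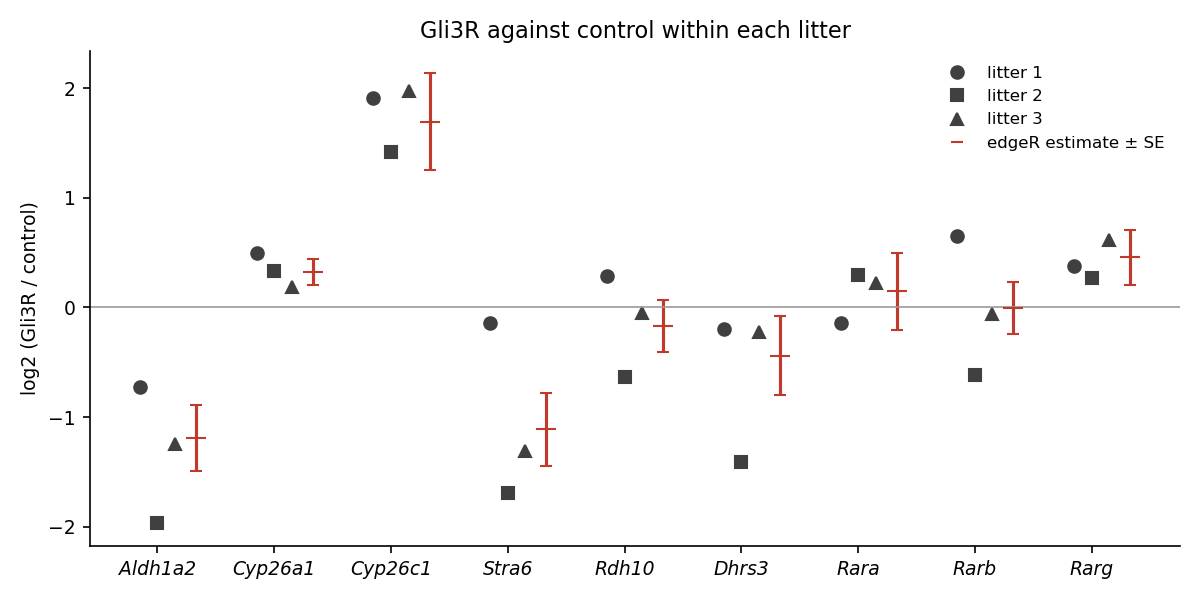
Log2 ratio of TMM-scaled CPM in the Gli3R library over the control library of the same litter (vertical axis) for the 9 tested genes, with symbols for litters 1 to 3 and the edgeR estimate ± SE in red. Aldh1a2 ran from -1.97 to -0.73 and Cyp26a1 from 0.18 to 0.50, while Rarb and Rdh10 lay on both sides of 0.

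Cyp26a1, the main retinoic acid hydroxylase gene of the gastrula, had 65.2, 65.2 and 70.0 CPM in Gli3R replicates 1, 2 and 3, against 46.2, 51.9 and 61.6 CPM in control replicates 1, 2 and 3. All Gli3R libraries lay above all control libraries, and those of the Gli3R group were close together, with a coefficient of variation of 4.13% against 14.7% in control. The difference was small. Its mean of 66.8 ± 2.76 CPM with Gli3R and 53.2 ± 7.81 CPM in control (SD, n = 3 each) gave a log2 fold change of 0.32 ± 0.12 (SE), or 1.25-fold, which did not pass (edgeR QL, adjusted p = 0.607).

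Cyp26c1, which lies next to Cyp26a1 on chromosome 19 and encodes a related hydroxylase, was sparse. It had 18, 10 and 13 reads in Gli3R replicates 1, 2 and 3, against 2, 5 and 4 reads in control replicates 1, 2 and 3. In CPM these were 1.398, 1.28 and 1.99 in Gli3R and 0.371, 0.481 and 0.507 in control libraries, so each Gli3R library held 2.66 to 3.93 times the level of its litter's control. The summed reads, 41 with Gli3R and 11 in control, gave a ratio of 3.24 with a 95% exact interval, of counting error alone, from 1.64 to 6.997. Over the libraries the log2 fold change was 1.69 ± 0.44 (SE), which did not pass (edgeR QL, adjusted p = 0.318). It was the largest increase among the tested members, which Cyp26c1 joined only through its Gli3R libraries. Cyp26b1, the third hydroxylase gene, was near absent, with 3, 2 and 1 reads in Gli3R and 2, 0 and 1 in control libraries; the 0 in control replicate 2 allows up to 0.289 CPM. Its ratio of 1.74 had a 95% exact interval of 0.372 to 10.8, so no difference was detectable at this depth.

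Aldh1a2 and Cyp26a1 can be set against each other within a library, which leaves out library scaling. There were 1.78, 0.697 and 0.792 reads of Aldh1a2 per read of Cyp26a1 in Gli3R replicates 1, 2 and 3, against 4.15, 3.43 and 2.13 in control replicates 1, 2 and 3. In 2 of 3 Gli3R libraries the synthesis gene had fewer reads than the breakdown gene, and in all 3 control libraries it had more than 2 times as many. The lowest control ratio, in litter 3, was above the highest Gli3R ratio, in litter 1. This gap adds nothing new, since it follows from the non-overlapping levels of both genes, which differed in opposite directions. The ratio describes transcripts of a pair chosen with their differences known, and is given with no test.

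**Figure D3:**
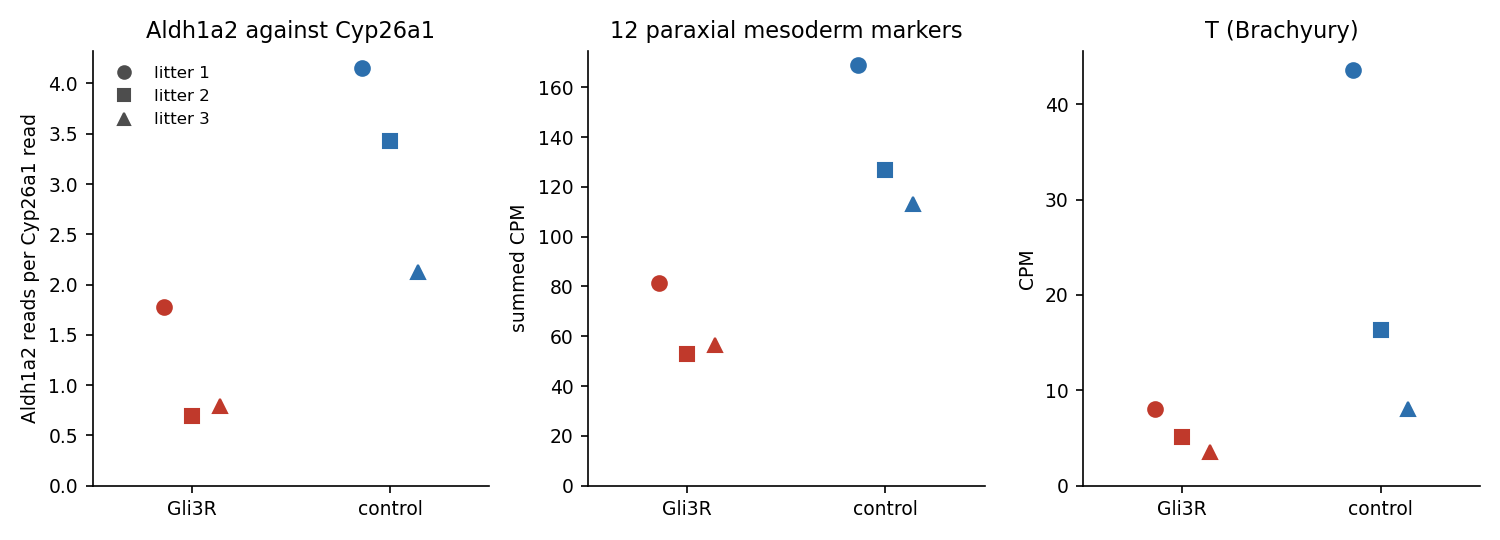
Reads of Aldh1a2 per read of Cyp26a1 (left panel), summed CPM of 12 paraxial mesoderm markers (middle) and CPM of T (right) in the Gli3R libraries (red) and the control libraries (blue), with symbols for the litter. The ratio lay between 0.697 and 1.78 in Gli3R and between 2.13 and 4.15 in control libraries, and T overlapped between the groups. The gap in the ratio follows from the non-overlapping, opposite differences of both genes.

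Cyp26a1 and Rarb are textbook targets of the receptors, which bind a direct repeat of a 6-base core site, so the upstream sequence of both is shown. RefSeq promoter windows (GRCm38.p6, 250 bases before a gene start) were at hand for 9 of the 10 members, in 18 windows. They were searched on both strands for 2 core sites (AGGTCA as well as AGTTCA, and GGGTCA as well as GGTTCA) in the same direction, separated by 1, 2 or 5 bases. The Cyp26a1 window is chr19:37697558-37697807 on the plus strand and the Rarb window chr14:16575477-16575726 on the minus strand. Both are printed 5′ to 3′ towards the gene start. Capitals mark only the core sites of a repeat with a spacer of 5 bases (in Cyp26a1 they read on the opposite strand). A core site outside such a repeat, as gggtca in the Rarb window, is left in lower case.
Cyp26a1: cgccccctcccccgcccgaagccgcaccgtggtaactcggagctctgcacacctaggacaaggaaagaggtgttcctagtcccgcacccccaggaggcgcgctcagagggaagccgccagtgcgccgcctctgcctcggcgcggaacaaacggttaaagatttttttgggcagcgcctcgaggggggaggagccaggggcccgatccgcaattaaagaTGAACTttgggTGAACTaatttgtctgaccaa
Rarb: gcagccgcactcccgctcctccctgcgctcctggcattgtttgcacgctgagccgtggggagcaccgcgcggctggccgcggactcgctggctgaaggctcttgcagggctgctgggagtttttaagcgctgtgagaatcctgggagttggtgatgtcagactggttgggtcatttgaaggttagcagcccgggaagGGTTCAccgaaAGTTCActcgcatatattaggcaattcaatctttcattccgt
Each holds 1 repeat with a spacer of 5 bases, from base -32 to -16 before the gene start in Cyp26a1 and from -53 to -37 in Rarb. The windows of Aldh1a2, Cyp26b1, Cyp26c1, Dhrs3, Rara, Rarg and Stra6 held none of the repeats searched. Of 32851 windows of all genes, 0.0883% held a repeat with a spacer of 5 bases and 0.426% any of those searched. A match describes letters and not binding. Of the 28 genes with the 5-base spacer, 6 were tested here and 0 passed (edgeR QL). These 6 were Cyp26a1 and Rarb themselves, Blvrb, Gm2001, Hbb-y and Syndig1. Their log2 fold changes ran from -0.65 to 0.38, with a median of 0.15 beside -0.01 for all genes tested. Since Cyp26a1 and Rarb are among them, the median is not separate from the values of these members.

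Rarb, the receptor gene that retinoic acid itself induces, had 14.8, 9.61 and 9.97 CPM in Gli3R replicates 1, 2 and 3, against 9.46, 14.7 and 10.4 CPM in control replicates 1, 2 and 3. The high library was replicate 1 in the Gli3R group and replicate 2 in the control group, and the means of 11.5 ± 2.92 CPM with Gli3R and 11.5 ± 2.80 CPM in control (SD, n = 3 each) nearly coincided (log2 fold change -0.01 ± 0.24). So of the pair with the receptor repeat, Cyp26a1 stood at 0.32 and Rarb at -0.01, neither past the threshold. Rara, the broadly expressed receptor gene, had 5.05, 2.95 and 4.14 CPM in Gli3R and 5.57, 2.41 and 3.55 CPM in control libraries, with replicate 1 the highest and replicate 2 the lowest in both groups (log2 fold change 0.15 ± 0.35). Rarg, a receptor gene known from the tail end of the embryo, had 7.45, 5.00 and 7.98 CPM in Gli3R and 5.75, 4.14 and 5.20 CPM in control libraries. It was higher in each litter, by 1.21 to 1.53 times, but its groups overlapped (log2 fold change 0.46 ± 0.25; edgeR QL, adjusted p = 0.862). The adjusted p-values of Rara and Rarb were 0.996 and 0.999.

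The wider pathway was read from 6 lists with 73 distinct genes in the table, of which 51 were tested. Over all genes tested, 0 of the 51 rose and 0 fell (edgeR QL, and likewise 0 by DESeq2). At an unadjusted p under 0.05, 4 were higher and 2 lower, beside 6.85% of all genes tested, and apart from the members these were Meis1 and Crabp2. With litter as a block, 5 were higher and 6 lower at an unadjusted p under 0.05, beside 8.73% of all genes tested. Adjusted over the whole table, 1 of the 51 fell with the block, against 0.151% of all genes tested (0.227% in either direction). It was Cdx1, a caudal-type homeobox gene that retinoic acid and WNT signals induce, at 23.1, 6.02 and 5.06 CPM in Gli3R replicates 1, 2 and 3, against 47.3, 19.7 and 16.9 CPM in control replicates 1, 2 and 3 (edgeR adjusted p = 0.0327 with the block and 0.740 without). The median log2 fold change of the pathway genes without the members was -0.02, beside -0.01 for all genes tested.

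Among carriers of retinoids, 8 tested genes had a median log2 fold change of 0.07. Crabp2, which carries retinoic acid to its receptors, had 73.3, 68.6 and 74.6 CPM in Gli3R against 67.9, 55.1 and 47.4 CPM in control libraries (log2 fold change 0.35 ± 0.13). Its groups lay close but did not overlap. Dgat1, which can esterify retinol, stood at 0.21 ± 0.20. Lrat, which stores retinol as esters, had 0 reads in all 6 libraries, which allows up to 0.233 CPM in the deepest library and 0.557 CPM in the shallowest.

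Other enzymes that could make retinaldehyde or retinoic acid were sparse or differed little. The Aldh1a2 relatives Aldh1a1 and Aldh1a3, named after their values were seen, had 0 and 29 reads in the Gli3R group, against 6 and 17 reads in the control group. Beside 2209 reads of Aldh1a2 in the Gli3R group and 3919 in the control group, the Aldh1a family was thus read almost entirely as Aldh1a2. The 10 tested dehydrogenases and reductases had a median log2 fold change of -0.10, and apart from Aldh1a2 and Dhrs3 the next by p was Rdh13, a retinol dehydrogenase family gene, at -0.32 ± 0.24. Por, which passes electrons to the Cyp26 enzymes, stood at -0.22 ± 0.13.

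The 6 tested receptor genes, with the retinoid X receptors added, had a median log2 fold change of 0.07. Rxrb stood at -0.21 ± 0.19 and Rxra at -0.25 ± 0.34. The 15 receptor cofactor genes lay between -0.35 and 0.28 with a median of -0.02. Those with the smallest p were the coactivator gene Ncoa3 (0.28 ± 0.17), the corepressor complex gene Tbl1xr1 (0.25 ± 0.16), the histone deacetylase gene Hdac1 (-0.12 ± 0.08) and Wdr5 (-0.08 ± 0.09), a subunit gene of histone methyltransferase complexes. None of these passed (edgeR QL, smallest adjusted p of the cofactors 0.902, with 0 of 15 at an unadjusted p under 0.05).

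Genes that retinoic acid induces did not move as one. Of 24 in the table, 15 were tested, with 6 positive and 9 negative log2 fold changes and a median of -0.04. Meis1, a homeobox partner of Hox proteins, had 33.7, 27.3 and 39.3 CPM in Gli3R against 19.7, 23.5 and 23.7 CPM in control libraries. Its groups did not overlap and its log2 fold change of 0.58 ± 0.16 did not pass (edgeR QL, adjusted p = 0.354). Among Hox genes named after their values were seen, Hoxb1 stood at 0.08 ± 0.19 and Hoxb5 at 0.52 ± 0.27. Of the genes of this list that are also members, Stra6 and Dhrs3 were on the lower side, Cyp26a1 on the higher side, and Rarb near 0.

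**Figure D4:**
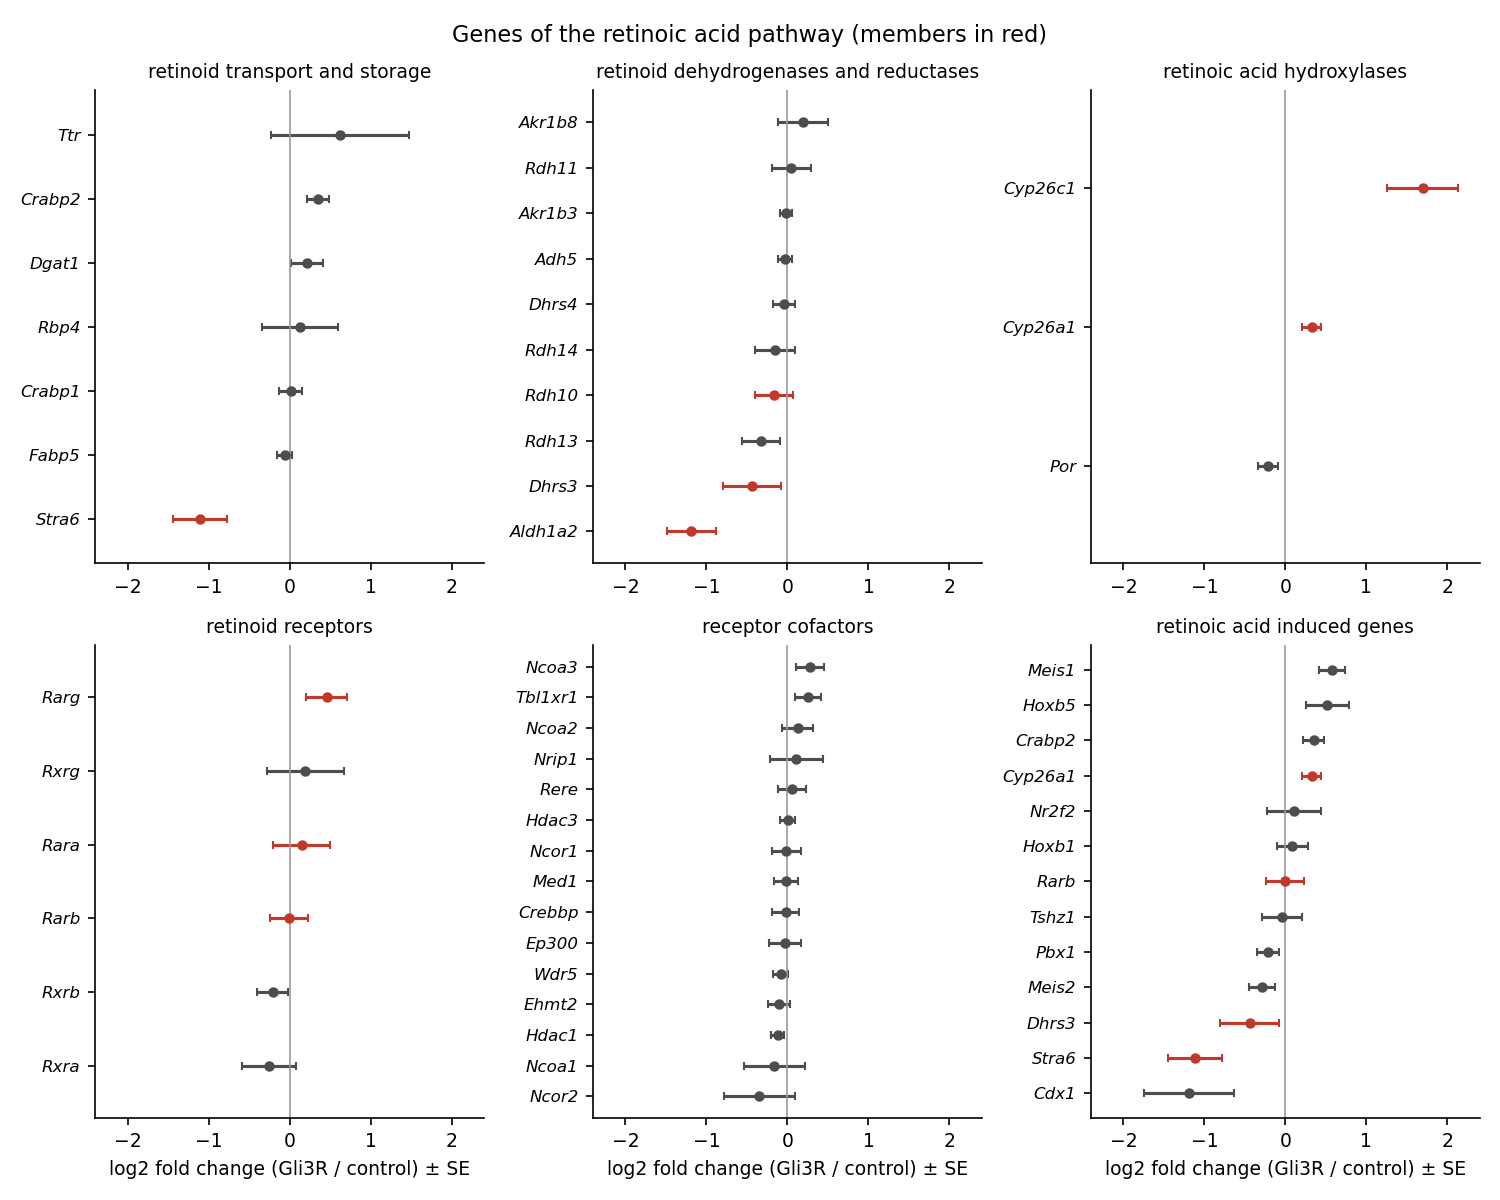
Log2 fold change (Gli3R over control, horizontal axis) ± SE from edgeR for tested genes of 6 retinoic acid lists, with the members in red and other genes in grey. Aldh1a2, Stra6 and Cdx1 lie below -1 and Cyp26c1 above 1, while the 15 cofactor genes lie between -0.35 and 0.28.

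Markers of other cell types were read in the same libraries. Visceral endoderm, which makes Rbp4 and Ttr (both also on the carrier list), had a summed level of 14.4 to 54.6 CPM over 12 genes in Gli3R and 16.2 to 48.1 CPM in control libraries. Its defining gene Hnf4a had 1 read in the Gli3R group and 2 in the control group, but other markers of the list were read more. Apoa1 had 251 reads in the Gli3R group and 150 in the control group, Rbp4 222 and 198, and Spink1 44 and 178. Apoa1 was highest in replicate 2 of each group, at 23.1 CPM in Gli3R and 12.4 CPM in control. Of the 6 tested, 4 had a positive and 2 a negative log2 fold change. Epiblast and neural ectoderm markers summed to 141 to 155 CPM over 10 genes in Gli3R and 149 to 269 CPM in control libraries, and most of that sum was Dnmt3b, at 94.97 to 108 CPM in Gli3R and 92.3 to 135 CPM in control libraries. Of the 7 tested, 6 had a negative log2 fold change (median -1.10). Cdh1, Hesx1, Epcam and Pou5f1 were lower in every Gli3R library than in every control library, as were 6.33% of all genes tested. Each had an unadjusted p under 0.05 (edgeR QL), as did 3.29% of all genes tested on the lower side. None passed the adjusted threshold. With litter as a block, Cdh1 fell, as did 0.151% of all genes tested. The E-cadherin gene Cdh1 lay at 0.307 to 0.544 CPM in Gli3R and 2.28 to 7.24 CPM in control libraries. Extraembryonic ectoderm markers summed to 366 to 604 CPM over 8 genes in Gli3R and 321 to 566 CPM in control libraries, with the defining gene Elf5 at 0 reads in all 6. Most of that sum was the keratin gene Krt8, at 356 to 594 CPM in Gli3R and 298 to 552 CPM in control libraries, which other tissues also make. Its log2 fold change was 0.20. Ascl2 had 59 reads in the Gli3R group and 115 in the control group (log2 fold change -1.11), with groups that did not overlap. Cdx2 had 220 reads in the Gli3R group and 275 in the control group (-0.56), with groups that overlapped. None of these passed (edgeR QL). Primitive blood markers summed to 183 to 638 CPM over 6 genes in Gli3R and 185 to 417 CPM in control libraries. Endothelial markers summed to 26.7 to 30.4 CPM over 6 genes in Gli3R and 19.7 to 32.98 CPM in control libraries, and node and notochord markers to 1.09 to 1.67 CPM over 6 genes in Gli3R and 1.78 to 3.71 CPM in control libraries. The node sums rest on few reads. Noto had 0 reads in the Gli3R group, against 11 in the control group, all 11 in control replicate 1. Foxa2 had 0 reads in each Gli3R library, against 3, 11 and 5 in control replicates 1, 2 and 3. Nog had 33 reads in the Gli3R group and 26 in the control group (log2 fold change 0.21 ± 0.44), and Chrd had 4 in each. The part of these cell types in the levels of the retinoic acid genes was not tested.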

How the data were processed

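The authors deposited raw read counts per Entrez gene, 1 column per library. Per the submitters' processing notes, the tools were TopHat2 2.0.14, featureCounts, Subread 1.4.6, edgeR and FastQC on the build mm9, without a role for each. No source used here states the annotation, the strand setting or multi-mapping, so overlapping or antisense genes cannot be told apart. Groups, replicates and litters came from the labels, which pair same-numbered libraries by litter, and same-litter libraries had correlations of 0.168, 0.196 and 0.0744 (litters 1, 2 and 3) in their deviations from the group mean, against -0.282 to 0.174 between litters. Library pairs differed by a chi-square per gene of 4.09 to 14.8, above sampling noise.

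The deposited counts were fitted without change in R 4.3.3 with edgeR 4.0.16 (filterByExpr, minimum count 10, TMM). The quasi-likelihood test was two-sided, with Benjamini-Hochberg over all genes tested and a threshold of 0.05. The fit was also run on counts simulated without a litter effect, which does not show its error rate on these libraries. The edgeR fit held no litter term. CPM use TMM-scaled library sizes, and 0.5 was added before log2 for correlations and principal components. Alternatives were DESeq2's size factors, library size alone, a block for litter, no filter, at least 5 CPM in 3 libraries, DESeq2 1.42.0 and each library left out; leaving out both libraries of litter 1 was added after seeing the data. Intervals on reads are exact and, like the limit of 3 reads for a count of 0, cover counting error only, since amplified copies count as reads. Levels per kb used exon lengths of GENCODE M21 (GRCm38), found for 89.4% of tested genes, which may differ from the authors' annotation. The 27 symbols turned into dates were restored by Entrez ID. Each library is a pool of littermates, and each litter gave a Gli3R pool and a control pool. The main p-values rest on the spread between pools within each group and leave the pairing by litter out.

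Named are all members; Gli3, T, Tcf15 and Meox1; up to 4 tested genes with the smallest p of each pathway list; and the 6 genes most like Aldh1a2. Members and lists were chosen with earlier results of these data known. Marker genes are named to describe the samples. Of the list genes, 2 are counted but not reported here.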

Additional observations from a re-analysis of the deposited data

How the results depend on the processing

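Of 113 recomputed values of the 9 tested members, 102 kept their direction and their side of the threshold, 3 passed where the main value did not, and 8 changed sign. The 3 were Aldh1a2 without the low-count filter (log2 fold change -1.18), without Gli3R replicate 1 (-1.73) and without both libraries of litter 1 (-1.62). Over all alternatives Aldh1a2 ran from -1.73 to -0.95, with edgeR or DESeq2 adjusted p-values from 0.00185 to 0.782. The 8 were all of Rara and Rarb, which lie near 0. Rara ranged from -0.12 to 0.48 and Rarb from -0.37 to 0.22, with a library left out from -0.25. Rara stood at -0.07 without Gli3R replicate 1 and -0.12 without control replicate 2. Rarb stood at 0.0076 with library size alone, 0.0019 without the filter, 0.0016 at 5 CPM or more in 3 libraries, 0.11 without Gli3R replicate 2, 0.08 without Gli3R replicate 3 and 0.22 without control replicate 2. Cyp26a1 (0.24 to 0.44), Cyp26c1 (1.51 to 1.80), Stra6 (-1.54 to -0.70), Dhrs3 (-0.75 to -0.11), Rdh10 (-0.33 to -0.04) and Rarg (0.33 to 0.63) kept their direction wherever they could be tested.

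The count of members called was 0, and 1 (Aldh1a2) without the filter or without litter 1, and 0 to 1 with a library left out. With litter as a block 0 members passed, and the replicate block changed no other call of a member. Of the pathway genes 0 passed, 1 with the block (Cdx1), 1 without the filter (Aldh1a2), 2 without litter 1 (Aldh1a2 and Cdx1) and 0 to 1 with a library left out. The whole table gave 16 calls, 27 with the replicate block, 108 without the filter, 94 with the DESeq2 Wald test, 27 without litter 1 and 0 to 18 with a library left out: 9 without Gli3R replicate 1, 5 without Gli3R replicate 2, 0 without Gli3R replicate 3 (where 659 had an unadjusted edgeR p under 0.05), 6 without control replicate 2 and 8 without control replicate 3. The causes were not tested. At these depths 1 read stood for 0.0777 to 0.186 CPM, which limits Cyp26b1 and Cyp26c1.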
